A study of Mus musculus with 8 samples.

Results

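The genes described here are 10 components of MHC class I antigen presentation and of the immunoproteasome: the heavy chain genes H2-K1 and H2-D1, the light chain gene B2m, the peptide loading genes Tap1, Tap2 and Tapbp, the immunoproteasome subunit genes Psmb8, Psmb9 and Psmb10, and the transactivator gene Nlrc5. They were taken by name through the platform annotation, which assigned 27 probe sets of the 34945 probe sets with 1 gene to them, so that all 10 of the 18193 genes measured in the series were covered. Another 3 probe sets that name H2-K1 or H2-D1 together with other genes were left out. RNA of mouse embryonic fibroblasts was measured on 8 Affymetrix arrays, 2 for each of 4 groups: Stat5a/b-null cells with growth hormone (GH), null cells without GH, control cells with GH and control cells without GH. The null cells lack both Stat5a and Stat5b, and the control cells are labelled wild type; the strain is C57BL/6 in every group. All cells were at passage 13 and were starved for 5 hours, after which GH was given at 1 ug/ml, or withheld, for 2 hours. The labels call the arrays of a group biological replicates numbered 2 and 3 and name no separate embryos or cultures behind them, so each p-value rests on the array-to-array spread, which may be technical.

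MHC class I molecules display peptides of intracellular proteins to CD8 T cells and to natural killer cells. The peptides are cut by the proteasome, carried into the endoplasmic reticulum by the TAP1 and TAP2 transporter, and loaded with the help of tapasin (Tapbp) onto a heavy chain that is held together by beta-2 microglobulin. Interferon and NF-kappaB signalling induce most of these genes, and NLRC5 acts on their promoters. In the immunoproteasome the inducible subunits PSMB8, PSMB9 and PSMB10 take the places of the constitutive catalytic subunits PSMB5, PSMB6 and PSMB7. STAT5 is the main transcription factor activated by GH through its receptor and JAK2.

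Promoter windows of 300 bases, from 250 bases before to 50 bases after an annotated start, were found in the RefSeq table (GRCm38.p6) for 8 members, all but Tap2 and Nlrc5. The windows of H2-K1 (chr17:34000298-34000597, minus strand) and H2-D1 (chr17:35262844-35263143, plus strand) are shown because these 2 genes moved together on the arrays. In both, capitals mark runs of at least 15 letters that the windows share. Where the windows aligned, 211 of 239 letters were identical (88.3%), and the longest shared run had 47 letters.
H2-K1: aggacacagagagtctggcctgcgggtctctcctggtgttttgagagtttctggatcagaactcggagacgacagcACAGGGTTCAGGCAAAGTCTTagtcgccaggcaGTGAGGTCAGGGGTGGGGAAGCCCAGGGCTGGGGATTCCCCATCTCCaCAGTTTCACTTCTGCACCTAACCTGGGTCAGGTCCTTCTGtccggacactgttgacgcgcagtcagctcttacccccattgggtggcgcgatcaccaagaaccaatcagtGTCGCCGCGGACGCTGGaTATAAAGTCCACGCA
H2-D1: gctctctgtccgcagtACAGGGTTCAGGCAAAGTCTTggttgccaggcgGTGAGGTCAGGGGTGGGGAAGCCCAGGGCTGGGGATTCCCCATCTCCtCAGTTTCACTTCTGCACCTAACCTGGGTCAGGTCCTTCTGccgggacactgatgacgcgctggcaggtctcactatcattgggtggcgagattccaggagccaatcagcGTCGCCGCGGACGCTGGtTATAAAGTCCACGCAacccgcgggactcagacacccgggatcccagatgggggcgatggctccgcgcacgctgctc
The longest shared run holds the letters GGGATTCCC, the core of the palindrome bound by NF-kappaB in class I promoters, which 0.353% of the 32851 promoter windows hold. Its first letter lies 110 bases before the annotated start of H2-K1 and 170 bases before that of H2-D1. The annotated starts do not lie at matching places in the 2 windows. The last shared run lies after the start of H2-K1 but before that of H2-D1. The distances therefore do not show that the site lies nearer in H2-K1 when the shared runs are aligned. The NF-kappaB motif was added after the promoters had been read. Both windows also hold the letters TGACG, the core of a CRE-like site, which 20.8% of all windows hold on either strand.

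Other motifs searched on both strands were GAAANNGAA, the core of the interferon-stimulated response element in letters set after the promoters had been read (8.56% of all windows), and TTCNNNGAA, the STAT palindrome (8.3%). In the windows of B2m (chr2:122147437-122147736, plus strand), Tap1 (chr17:34187306-34187605, plus strand) and Psmb8 (chr17:34197945-34198244, plus strand) capitals mark the matches. B2m is shown because its level did not follow the heavy chains, and Psmb8 because its window is the only one of the 8 with a STAT palindrome.
B2m: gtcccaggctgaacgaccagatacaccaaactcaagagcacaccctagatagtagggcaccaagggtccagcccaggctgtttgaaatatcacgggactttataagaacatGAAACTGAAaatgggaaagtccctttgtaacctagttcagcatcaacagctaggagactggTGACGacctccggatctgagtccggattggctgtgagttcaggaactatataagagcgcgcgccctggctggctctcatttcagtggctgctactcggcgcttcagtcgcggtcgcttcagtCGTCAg
Tap1: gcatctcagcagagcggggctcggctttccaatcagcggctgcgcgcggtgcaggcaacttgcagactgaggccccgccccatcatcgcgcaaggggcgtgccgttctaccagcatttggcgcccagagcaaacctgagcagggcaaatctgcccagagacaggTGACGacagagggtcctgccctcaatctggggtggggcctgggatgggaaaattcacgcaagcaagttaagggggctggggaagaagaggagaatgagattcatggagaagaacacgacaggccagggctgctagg
Psmb8: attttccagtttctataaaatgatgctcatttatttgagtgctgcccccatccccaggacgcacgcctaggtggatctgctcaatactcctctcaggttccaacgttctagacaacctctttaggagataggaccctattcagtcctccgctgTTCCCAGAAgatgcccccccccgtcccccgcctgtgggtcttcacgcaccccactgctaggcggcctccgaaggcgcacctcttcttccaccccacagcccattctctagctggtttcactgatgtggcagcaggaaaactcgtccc
B2m held 1 match to GAAANNGAA, and no other member window held these letters. B2m also held 2 matches to TGACG, and Tap1 held 1 match to TGACG. Only this order and spacing of the interferon element core was searched. A run shared by H2-K1 and H2-D1 holds TTTCACTTC, on whose other strand the parts of that core stand in reverse order. The search did not count it, so it cannot show that the heavy chain windows lack an interferon element. Tap1 and Psmb9 are neighbours transcribed in opposite directions, and 275 bases of their windows are the same stretch. Psmb9, Tap1, Psmb8 and Tap2 are neighbouring genes on chromosome 17, where 7 of the members lie. The windows of Tapbp and Psmb10 held none of the 4 motifs, and no matches overlapped in the member windows. These matches describe letters in short windows and do not show that a factor bound there.

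Median log2 values per array ranged from 6.89 to 6.96, and replicate arrays correlated at 0.997 to 0.998. Because the deposited values carry no detection call, a gene is called dim in a group where its mean lies below the first quartile over all genes and arrays (6.1). The mean level of the 12 fibroblast markers lay between 12.97 and 14.02 on the 8 arrays, but some of them differed widely between the genotypes. Lum, a matrix proteoglycan gene, stood at 12.07 in null cells with GH and 12.08 in null cells without GH, against 7.70 in control cells with GH and 7.76 in control cells without GH, below the median of all gene values (8.04). Without GH, Dcn, a related proteoglycan gene, stood at 14.53 in null and 10.96 in control cells, and Pdgfra, a receptor gene of mesenchymal cells, at 12.96 in null and 9.16 in control cells. Markers of macrophages and leukocytes differed between the genotypes: all 12 were lower in null cells, with GH and without. Their mean level was 6.43 to 6.49 on null arrays with GH and 6.48 to 6.51 on null arrays without GH, against 9.71 to 9.79 on control arrays with GH and 9.63 to 9.74 on control arrays without GH. Ptprc, Itgam, Aif1 and Cd48 were dim in null cells with GH and without, and Tyrobp and Adgre1 in null cells with GH only. Without GH, where 47.5% of all genes differed between the genotypes (24.8% higher and 22.7% lower in null cells), 5 of the 12 fibroblast markers were higher and 1 lower. Of 8 dendritic cell and lymphocyte markers 1 was higher and 1 lower, of 6 epithelial markers 1 was higher, and of 6 endothelial markers 3 were lower, among them Tek and Vwf, which were dim in both groups. These shares lie near or below that of all genes. Ptprc (CD45), carried by all leukocytes, stood at 9.56 in control cells with GH and 9.20 in control cells without GH. The part of the macrophage, leukocyte and fibroblast markers in the genotype differences below was not tested, and in bulk RNA a smaller number of cells of a type and less RNA per cell cannot be told apart.

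Without GH, null cells had less heavy chain RNA than control cells, whereas the tapasin gene Tapbp, the immunoproteasome gene Psmb10 and the transporter gene Tap2 were higher. The light chain gene B2m was not called, nor were Tap1, Psmb8, Psmb9 and Nlrc5. In all, 3 members were higher and 2 lower, where 24.8% of all genes were higher and 22.7% lower (47.5% in either direction), so 5 of 10 is close to the background share. The median log2 difference of the members was -0.06, against 0.03 for all genes. The sizes ran from -2.79 to 1.57, as the plot of the values on each array shows.

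**Figure D1:**
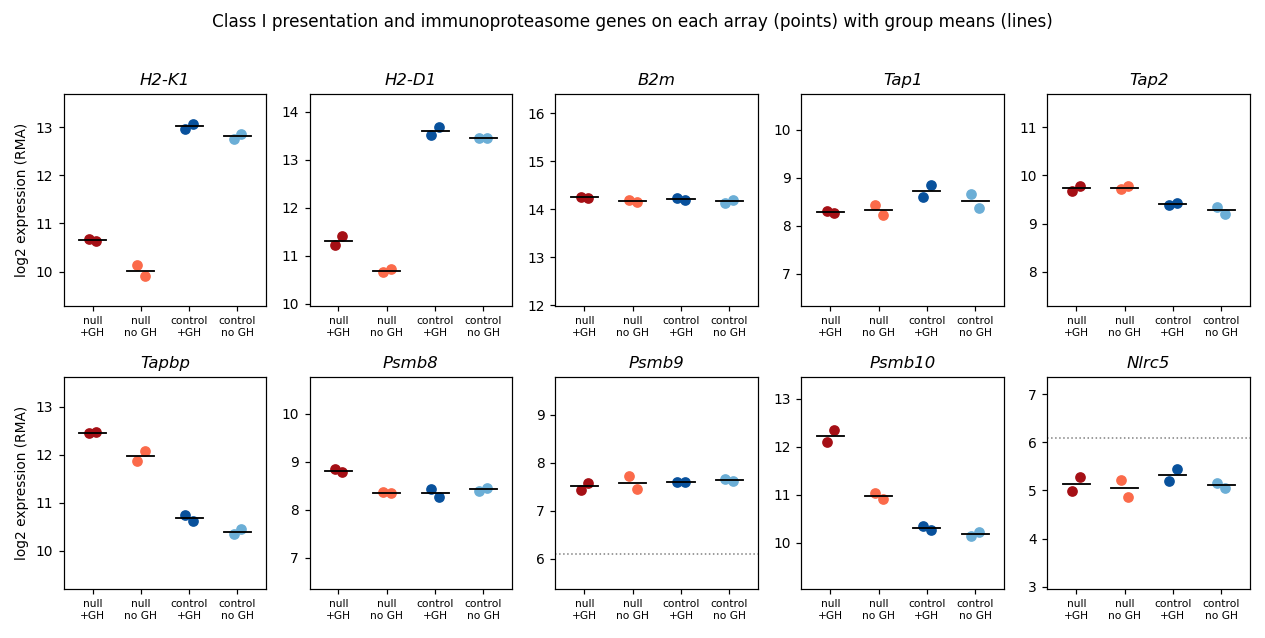
Log2 expression (RMA) of the 10 members by the probe set that stood for each gene, for null cells with GH, null cells without GH, control cells with GH and control cells without GH. Points are single arrays (2 per group), lines are group means, every panel spans the same log2 range, and the dotted line is the first quartile over all genes (6.1). H2-K1 and H2-D1 sit lower on all null arrays, Tapbp and Psmb10 sit higher there, and B2m lies between 14.13 and 14.26 on all 8 arrays.

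H2-K1, one of the classical class I heavy chains, had 10.14 and 9.91 on the null arrays without GH, against 12.76 and 12.86 on the control arrays without GH. The groups lay far apart, with a 6.92-fold lower level in null cells (log2 difference -2.79 ± 0.10 SE, limma adjusted p = 4.20e-10). H2-D1, the other classical heavy chain, had 10.66 and 10.73 in null cells and 13.44 and 13.45 in control cells, 6.75-fold lower (-2.76 ± 0.10, adjusted p = 3.97e-10). These values come from 1 probe set per gene, and other probe sets of the same genes gave other sizes.

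Heavy chain genes are close copies of each other, and 11 of their 13 one-gene probe sets carry the suffix by which Affymetrix marks probes that can match other sequences, so signal may be shared between H2-K1, H2-D1 and further class I genes. Each probe set was therefore also tested alone. The 7 probe sets with a mean over all 8 arrays above the median of all gene values (8.04) were all lower in null cells without GH. Their log2 differences ran from -2.79 to -1.97 for H2-K1 and from -3.14 to -2.76 for H2-D1. That mean includes the control arrays, so the split favours probe sets that are high there, and their common direction is no separate support. The H2-D1 probe sets with means of 7.33 and 7.78 in null cells without GH lay below 8.04 there. The largest difference came from the brighter of the 2 H2-D1 probe sets without that suffix, which had 7.40 and 7.25 in null cells, against 10.45 and 10.49 in control cells without GH. Of the 6 weaker probe sets, 1 was lower and 5 were not called, with differences from -0.46 to -0.01. The plot of each heavy chain probe set shows that the weaker ones, not all of which were dim, carried small differences. With the mean of all its probe sets, H2-K1 differed by -1.89 and H2-D1 by -1.46 (adjusted p = 5.50e-09 and 6.27e-08).

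**Figure D2:**
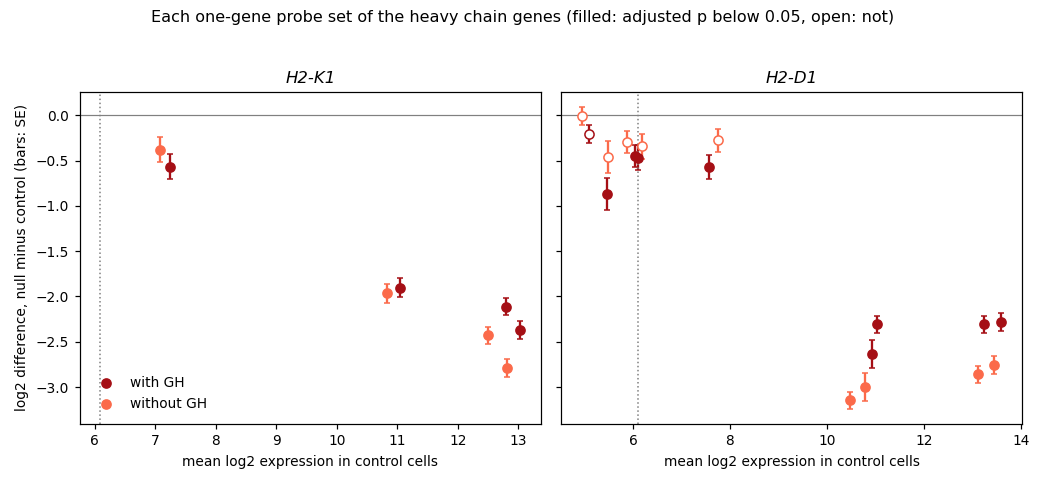
Log2 difference of null minus control cells (vertical axis, bars are SE) for each one-gene probe set of H2-K1 (4) and H2-D1 (9), against its mean log2 expression in control cells of the same GH state. Filled points had an adjusted p below 0.05 when all 34945 probe sets were tested, and the dotted line is the first quartile over all genes. The probe sets above 10 in control cells lie between -3.14 and -1.90, and the others above -0.9.

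B2m, which encodes the light chain of every class I molecule, had 14.19 and 14.16 in null cells and 14.13 and 14.20 in control cells without GH. The groups overlapped, and the 95% interval of the log2 difference ran from -0.18 to 0.19 (adjusted p = 0.969). The second B2m probe set differed by 0.05.

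Among the peptide loading genes, Tapbp, the chaperone that bridges the heavy chain and the transporter, had 11.87 and 12.08 in null cells, against 10.36 and 10.45 in control cells without GH. This is 2.96-fold higher in null cells (1.57 ± 0.10, adjusted p = 6.07e-08), and its second probe set gave 1.98. Tap2, a subunit of the transporter, had 9.71 and 9.78 in null cells and 9.34 and 9.21 in control cells (0.47 ± 0.09, adjusted p = 0.000891). The null arrays were above the control arrays for both genes. Tap1, the partner of Tap2, had 8.42 and 8.22 in null cells and 8.66 and 8.37 in control cells, and the groups overlapped (-0.19 ± 0.12, adjusted p = 0.237).

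Of the immunoproteasome subunits, Psmb10 (MECL-1) had 11.03 and 10.91 in null cells, against 10.14 and 10.22 in control cells without GH, 1.73-fold higher (0.79 ± 0.10, adjusted p = 3.75e-05). Psmb8 (LMP7) had 8.37 and 8.35 in null cells and 8.40 and 8.46 in control cells (-0.07 ± 0.09, adjusted p = 0.558). Psmb9 (LMP2) had 7.72 and 7.45 in null cells and 7.66 and 7.62 in control cells (-0.06 ± 0.10, adjusted p = 0.69). Only Psmb10 of the 3 subunits was therefore called without GH. Nlrc5, the class I transactivator, was dim in all 4 groups, with 4.86 to 5.45 over the 8 arrays, and no difference is read from it in any comparison.

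With GH present, 4 members were higher and 3 lower in null than in control cells, where 22.2% of all genes were higher and 23.1% lower (45.3% in either direction). The median was -0.03 for the members and -0.02 for all genes. H2-K1 had 10.67 and 10.64 in null cells, against 12.97 and 13.08 in control cells with GH, 5.17-fold lower (-2.37 ± 0.10, adjusted p = 1.70e-09). H2-D1 had 11.22 and 11.41 in null cells, against 13.52 and 13.67 in control cells, 4.86-fold lower (-2.28 ± 0.10, adjusted p = 1.99e-09). All 7 brighter heavy chain probe sets were again lower, from -2.63 to -1.90, and with the mean of all its probe sets H2-K1 differed by -1.74 and H2-D1 by -1.34. B2m had 14.26 and 14.24 in null cells and 14.24 and 14.20 in control cells, with a 95% interval of the difference from -0.15 to 0.22 (adjusted p = 0.781).

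Tapbp had 12.45 and 12.47 in null cells, against 10.74 and 10.61 in control cells with GH, 3.44-fold higher (1.78 ± 0.10, adjusted p = 1.99e-08). Psmb10 had 12.10 and 12.35 in null cells, against 10.36 and 10.27 in control cells, 3.76-fold higher (1.91 ± 0.10, adjusted p = 1.64e-08). Both genes were well separated between the genotypes. Psmb8 had 8.84 and 8.79 in null cells and 8.43 and 8.28 in control cells with GH (0.46 ± 0.09, adjusted p = 0.000959). Its second probe set was dim in every group and was not called. Tap2 was higher (9.68 and 9.78 in null cells, 9.38 and 9.43 in control cells, 0.32 ± 0.09, adjusted p = 0.0109), while Tap1 was lower (8.30 and 8.26 in null cells, 8.60 and 8.86 in control cells, -0.45 ± 0.12, adjusted p = 0.00866). The subunits of the transporter thus differed in direction, by small amounts, and the other 3 probe sets of Tap1 were not called. The Tap1 call was lost without replicate 3 of the null cells with GH (adjusted p = 0.0634) or of the control cells with GH (adjusted p = 0.0961), and the Tap2 call without replicate 3 of the null cells (adjusted p = 0.0811) or replicate 2 of the control cells (adjusted p = 0.0737). Psmb9 had 7.44 and 7.57 in null cells and 7.60 and 7.60 in control cells (-0.09 ± 0.10, adjusted p = 0.546).

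**Figure D3:**
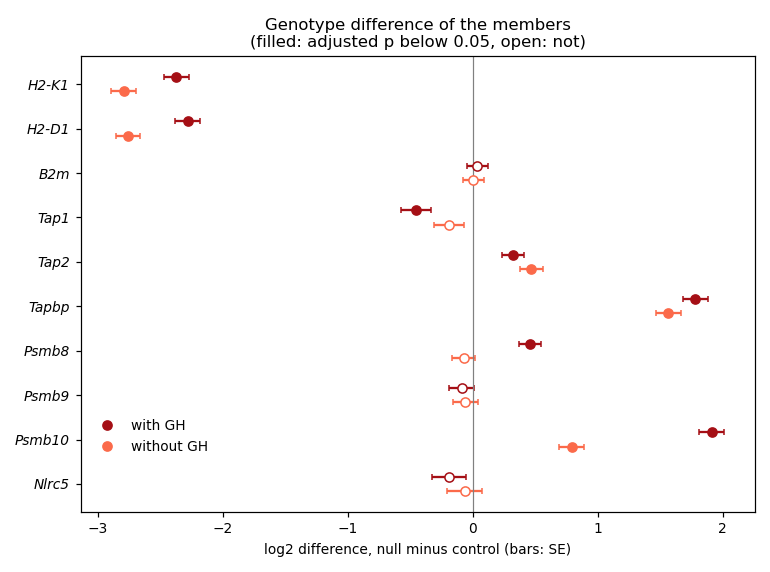
Log2 difference of null minus control cells for the 10 members, with GH (dark) and without GH (light). Bars are SE from the fit over all 8 arrays (2 per group), and filled points had an adjusted p below 0.05. The heavy chain genes lie between -2.79 and -2.28, Tapbp and Psmb10 between 0.79 and 1.91, and B2m and Psmb9 within 0.2 of zero.

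GH given to null cells raised 5 members and lowered none, where 5.36% of all genes were higher and 6.35% lower (11.7% in either direction). The median log2 difference was 0.27 for the members and -0.07 for all genes. Psmb10 rose most, with 12.10 and 12.35 with GH, against 11.03 and 10.91 without (2.39-fold, 1.26 ± 0.10, adjusted p = 8.62e-06). H2-K1 had 10.67 and 10.64 with GH, against 10.14 and 9.91 without, 1.55-fold higher (0.64 ± 0.10, adjusted p = 0.00163). H2-D1 had 11.22 and 11.41 with GH, against 10.66 and 10.73 without, 1.54-fold higher (0.62 ± 0.10, adjusted p = 0.00159). For none of these genes did the arrays with and without GH overlap, but with 2 arrays per group members also separated without a call in control cells.

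Tapbp had 12.45 and 12.47 with GH and 11.87 and 12.08 without in null cells (0.49 ± 0.10, adjusted p = 0.00752). Psmb8 had 8.84 and 8.79 with GH and 8.37 and 8.35 without (0.46 ± 0.09, adjusted p = 0.00657). These smaller rises depended on single arrays: the Tapbp call was lost without either array with GH or without replicate 2 of the cells without GH (adjusted p from 0.0615 to 0.0745), and the Psmb8 call without replicate 2 of the cells with GH (adjusted p = 0.0678). B2m (0.08 ± 0.08), Tap1 (-0.04 ± 0.12), Tap2 (-0.01 ± 0.09) and Psmb9 (-0.08 ± 0.10) were not called. Of the 7 brighter heavy chain probe sets 5 rose, by 0.62 to 1.39. Of the 6 weaker ones, 1 of H2-D1 fell by 0.47 and 5 were not called, and with the mean of its 9 probe sets H2-D1 was not called (0.23, adjusted p = 0.0751). None of the 12 macrophage and leukocyte markers was called by limma for GH in null cells (2 at an unadjusted p below 0.05), and 6 of them were dim in at least 1 of the 2 groups.

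In control cells none of the 10 members was called by limma after GH, where 1.72% of all genes were higher and 0.896% lower (2.62% in either direction), and 1 member, Tapbp, had an unadjusted p below 0.05. The median log2 difference was 0.14 for the members and -0.02 for all genes. H2-K1 had 12.97 and 13.08 with GH and 12.76 and 12.86 without, with a 95% interval of the difference from -0.0037 to 0.43 (0.21 ± 0.10, adjusted p = 0.502). H2-D1 had 13.52 and 13.67 with GH and 13.44 and 13.45 without (0.15 ± 0.10, adjusted p = 0.734). The arrays did not overlap for either gene, but no rise is read from this separation. It also held for Psmb9, whose difference was close to none (limma adjusted p = 0.964). With each probe set tested alone, the brighter H2-D1 probe set without the suffix was higher with GH in control cells, with 11.03 and 11.03, against 10.45 and 10.49 without GH (0.56 ± 0.09, adjusted p = 0.00907). No other member probe set was called. Tapbp had 10.74 and 10.61 with GH and 10.36 and 10.45 without (0.27 ± 0.10, adjusted p = 0.28). Psmb10 had 10.36 and 10.27 with GH and 10.14 and 10.22 without (0.14 ± 0.10, adjusted p = 0.795). Psmb8 (-0.08 ± 0.09), Psmb9 (-0.05 ± 0.10), Tap1 (0.22 ± 0.12), Tap2 (0.13 ± 0.09) and B2m (0.05 ± 0.08) were not called either.

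Whether the GH response differed between the genotypes was tested as the interaction, the response of null minus that of control cells, which called 5.16% of all genes (2.83% with a higher and 2.33% with a lower response in null cells). Of the 10 members 2 were called, both with the higher response in null cells. Psmb10 responded more in null cells (1.12 ± 0.15, adjusted p = 0.000807), and so did Psmb8 (0.53 ± 0.13, adjusted p = 0.0318). The Psmb10 call held without each of the 8 arrays in turn (adjusted p from 0.00126 to 0.00866). The Psmb8 call was lost without any 1 of 6 arrays (adjusted p from 0.0763 to 0.16) and held without replicate 2 of the control cells with or without GH. H2-D1 (0.48 ± 0.14, adjusted p = 0.0765) and H2-K1 (0.42 ± 0.14, adjusted p = 0.126) were not called by the probe set that stood for each gene. With each probe set tested alone, however, 2 of the 4 brighter H2-D1 probe sets were called, the one without the cross-match suffix (0.84 ± 0.13, adjusted p = 0.00476) and another with it (0.55 ± 0.13, adjusted p = 0.0343). No H2-K1 probe set was called, and with the mean of its probe sets H2-D1 was not (0.12 ± 0.11, adjusted p = 0.627). For the other members the interaction lay between -0.26 (Tap1) and 0.22 (Tapbp), with adjusted p from 0.484 to 0.951. The order of the Psmb10 levels was null with GH, null without GH, then control cells, whose levels with and without GH did not differ beyond the test.

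**Figure D4:**
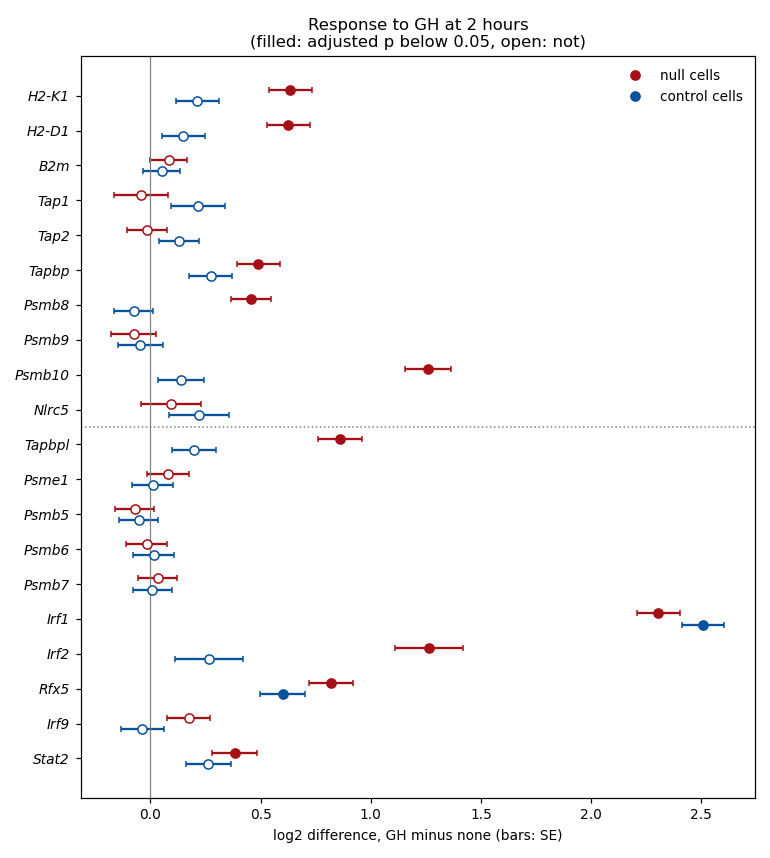
Log2 difference of GH minus none at 2 hours in null cells (red) and control cells (blue) for the 10 members (above the dotted line) and 10 other genes of the pathway. Bars are SE from the fit over all 8 arrays (2 per group), and filled points had an adjusted p below 0.05. Psmb10, H2-K1, H2-D1, Tapbp, Psmb8, Tapbpl and Irf2 are filled in null cells and open in control cells, whereas Irf1 and Rfx5 are filled in both.

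The constitutive catalytic subunits, whose places the immunoproteasome subunits take, differed little. Psmb7, the counterpart of Psmb10, was slightly higher in null cells (0.33 ± 0.09, adjusted p = 0.00781 with GH, and 0.30 ± 0.09, adjusted p = 0.0115 without), and Psmb5, the counterpart of Psmb8, slightly lower (-0.29 ± 0.09, adjusted p = 0.0192 with GH, and -0.27 ± 0.09, adjusted p = 0.0253 without). Psmb6, the counterpart of Psmb9, was not called in any comparison. GH changed none of the 3 in either genotype by limma, and none had an unadjusted p below 0.05. The other 11 genes of the 20S core went both ways between the genotypes without GH, with 4 higher and 3 lower (median 0.07, all genes 0.03), where 47.5% of all genes were called. The largest of these differences was that of Psmb3 (-0.77). None was called for GH in either genotype, nor at an unadjusted p below 0.05.

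Among activators and assembly factors of the proteasome, Psme1, a subunit of the interferon-inducible PA28 activator, had 12.42 and 12.38 in null cells, against 10.84 and 11.01 in control cells without GH (1.47 ± 0.09, adjusted p = 6.70e-08). With GH it was higher by 1.54 ± 0.09. Psme3, which encodes the nuclear PA28 subunit, was lower in null cells without GH (-1.06 ± 0.10, adjusted p = 3.13e-06), as was the assembly factor gene Pomp (-0.53). Of the 8 measured, 2 were higher and 4 lower without GH (median -0.09, all genes 0.03), so the list had no common direction. Of all genes, 24.8% were higher and 22.7% lower.

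In null cells without GH, 24.8% of all genes were higher and 22.7% lower than in control cells. Of the 10 loading and trimming genes outside the members, 1 was higher and 2 lower (median -0.16, all genes 0.03). The higher one was Tapbpl (TAPBPR), a tapasin-related peptide editor, which had 9.64 and 9.90 in null cells with GH and 8.91 and 8.91 in null cells without, against 8.74 and 8.71 in control cells with GH and 8.49 and 8.56 without. It rose with GH in null cells (0.86 ± 0.10, adjusted p = 0.000179) and was not called in control cells (0.20 ± 0.10, adjusted p = 0.563), and the interaction was called (0.66 ± 0.14, adjusted p = 0.0182). Tapbpl was also higher in null than in control cells with GH (1.05 ± 0.10) and without (0.38 ± 0.10). The aminopeptidase gene Erap1 and the chaperone gene Calr were not called in any comparison. Tpp2, a cytosolic peptidase, was lower in null cells without GH (-0.89 ± 0.10).

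Of the 8 non-classical and class I-like genes measured, 4 were higher and 2 lower in null cells without GH (median 0.37, all genes 0.03), where 47.5% of all genes were called. The fourth of the higher genes, H2-T24, was 1 of 3 genes of the list that were dim in all groups, and no difference is read from it. H2-M3, which presents N-formylated peptides, had 10.61 and 10.52 in null cells, against 9.28 and 9.15 in control cells without GH (1.35 ± 0.10, adjusted p = 1.98e-07). Fcgrt, the neonatal Fc receptor heavy chain (1.16 ± 0.10), and Mr1, which presents vitamin B metabolites (0.88 ± 0.11), were higher as well, and Cd1d1, which presents lipids, was lower (-0.60 ± 0.08). The 3 higher genes above the dim level thus differed in direction from H2-K1 and H2-D1. None was called for GH in null cells (2 at an unadjusted p below 0.05 by limma) or in control cells (none at that level).

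Of 21 regulators of class I genes, 10 rose with GH in null cells and 1 fell (median 0.32, all genes -0.07), where 5.36% of all genes were higher and 6.35% lower. In control cells 4 rose and 1 fell (median 0.12, all genes -0.02), where 1.72% of all genes were higher and 0.896% lower, and 16 were not called. Irf1, the interferon regulatory factor that binds class I and immunoproteasome promoters, had 12.03 and 12.20 with GH, against 9.76 and 9.86 without, in null cells (2.30 ± 0.10, adjusted p = 2.03e-08). In control cells it had 12.16 and 12.30 with GH, against 9.71 and 9.74 without (2.51 ± 0.10, adjusted p = 8.53e-09), and its interaction was not called (-0.20 ± 0.14, adjusted p = 0.501). Rfx5, a subunit of the complex through which NLRC5 reaches DNA, rose in both (0.82 ± 0.10 in null and 0.60 ± 0.10 in control cells).

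By the interaction, 5 of the 21 regulators responded more in null than in control cells and 1 less, Rfxank (-0.51). Of all genes, 2.83% had a higher and 2.33% a lower response in null cells. Irf2, a factor that shares sites with IRF1, had 9.10 and 8.59 with GH, against 7.54 and 7.62 without, in null cells, whereas in control cells it had 7.31 and 7.04 with GH and 6.79 and 7.03 without. Its interaction was 1.00 ± 0.22 (adjusted p = 0.0202). The interferon gamma receptor genes Ifngr1 (1.07 ± 0.09) and Ifngr2 (1.09 ± 0.09) and the NF-kappaB subunit gene Rela (1.05 ± 0.09) rose in null cells, and their interactions were called too (adjusted p from 0.0015 to 0.00487). Between the genotypes without GH, 24.8% of all genes were higher and 22.7% lower in null cells. Of the 21 regulators 10 were higher and 4 lower (median 0.11, all genes 0.03). Irf9 (0.52 ± 0.10) and Irf2 (0.67 ± 0.15) were among the higher ones, and Irf8, a factor of myeloid cells, was lower (dim in null cells, 7.27 in control cells). Stat2 was called for GH in null cells (0.38 ± 0.10, adjusted p = 0.0297) and not in control cells (0.26 ± 0.10, adjusted p = 0.329), and its interaction was not called (0.12 ± 0.14).

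Interferon response genes outside the pathway were read for comparison. In null cells, where 11.7% of all genes were called, 9 of 23 rose with GH and none fell (median 0.25, all genes -0.07, 11 at an unadjusted p below 0.05), and in control cells, where 2.62% were called, 6 rose and 1 fell (median 0.08, all genes -0.02). Gbp2, a guanylate-binding protein gene, rose by 3.31 ± 0.11 in null and by 1.06 ± 0.11 in control cells, an interaction of 2.25 ± 0.15 (adjusted p = 4.10e-06). Without GH, 24.8% of all genes were higher and 22.7% lower in null than in control cells. Of the 23 interferon response genes 9 were higher and 5 lower (median 0.16, all genes 0.03), and Ifit1 (2.01 ± 0.10) was among the higher ones. The higher genes Oasl2 and Mx1 were dim in both groups.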

How the data were processed

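Expression in mouse embryonic fibroblasts was measured on 8 arrays in 4 groups of 2, grouped by the array titles. The authors deposited log2 values from RMA (robust multi-array average) in Partek 6.10.0511, per the submitters' processing notes, with no settings named. The title and the source label of 1 array (null, no GH) disagree on its replicate number (2 against 3), and the title was used. Of 45101 probe sets, 64 controls, 932 with several genes and 9160 with none were left out. Symbols were updated through Entrez identifiers. The probe set with the highest mean stood for a gene.

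A linear model with 4 group means was fitted to the 8 arrays in limma 3.58.1 (R 4.3.3; 4 residual and 7.82 prior degrees of freedom), and adjusted p is Benjamini-Hochberg's over 18193 genes at a threshold of 0.05 in each of 5 comparisons. Errors are limma's SE, and intervals are 95%. The number of arrays limits the precision. The fitting code was checked on simulated arrays with few changed genes and independent noise. That check does not cover the genotype differences, where a far larger share of genes was called. Alternatives were a replicate block, leaving out each array, other probe set rules, a filter on dim genes, centring, another variance moderation and fits on fewer arrays. All members were named, with genes of 8 pathway lists and 5 marker lists: a fixed set of known components and up to 4 with the lowest p. Genes without a one-gene probe set, such as Psme2 and H2-T23, were not analysed here. The members and lists were chosen with earlier results of these data known.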

Additional observations from a re-analysis of the deposited data

Results flagged for a closer look

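A GH response that differed between null and control cells was flagged by a called interaction in limma with 2 arrays per group. This held for 2 of the 10 members, 7 other genes of the pathway lists and 7 of the 23 interferon response genes. Of all genes, 5.16% were called, 2.83% with a higher and 2.33% with a lower response in null cells. The values are the response of null minus that of control cells on the log2 scale. Psmb10 had 1.12 and Psmb8 0.53. Of the 10 other loading and trimming genes only 1 was called, the peptide editor gene Tapbpl, with 0.66. Of the 21 regulators 5 had a higher response and 1 a lower one. Irf2 had 1.00, Ifngr2 0.91, Ifngr1 0.82, Jak2 0.75 and Rela 0.73. Rfxank, a subunit of the RFX complex, had -0.51, with a fall in null cells (-0.75) and no call in control cells (-0.24). Of the interferon response genes, Gbp2 had 2.25, Irgm1 1.46, Ifit3 1.19 and Iigp1 0.79, whereas Cxcl10 had -1.75, Gbp3 -0.78 and Rsad2 -0.64. No group of 2 arrays is large enough to be searched for an outlying array.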

How the results depend on the processing

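Of 735 values of single members under an alternative, 715 kept their call, 18 lost it and 2 gained it. The 2 gained calls were of H2-D1 in the interaction (limma adjusted p = 0.049 without dim genes and 0.0177 with trended and robust variances). None of the called values changed direction. Some uncalled values did: the genotype difference of Psmb8 without GH was -0.07, but 0.02 with the mean of its probe sets. The replicate numbers do not mark a shared source in the labels, and deviations of same-numbered arrays correlated between -0.28 and 0.13 over the group pairs. With the number as a replicate block, 1 member in place of 2 was called in the interaction (Psmb8 adjusted p = 0.0538), and the counts of members called were 5, 7, 5 and 0 for the genotype difference without and with GH and GH in null and control cells, as without the block. The mean of a gene's probe sets also left 1 member in the interaction, and each probe set alone gave 1 member for GH in control cells. With only the arrays compared, 316 genes were called for GH in control cells, against 476. Leaving out 1 array gave 3 to 5 members and 818 to 2409 genes for GH in null cells (2130 with all arrays), 295 to 460 genes for GH in control cells, and 1 to 2 members and 437 to 872 genes for the interaction (938 with all arrays). Counts for the genotype differences stayed within 1.5 times. The lone array left in a group was assumed to vary like the others. Centring moved the median of all genes by at most 0.037 in a comparison. Dim levels, such as that of Nlrc5, limit what can be read.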

Other observations

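Genes of class II presentation gave a mixed picture. Cd74, the invariant chain that guides class II molecules, had 8.95 and 8.88 in null cells, against 7.56 and 7.51 in control cells without GH (1.38 ± 0.08, limma adjusted p = 4.56e-08). With GH it had 9.32 and 9.34 in null cells, against 7.62 and 7.60 in control cells (1.72 ± 0.08), and its rise with GH was called in null cells (0.41 ± 0.08, adjusted p = 0.00796). H2-DMa, which encodes a chain of the class II peptide editor, was lower in null cells without GH (-1.13 ± 0.09). The class II transactivator gene Ciita was dim in all 4 groups, and the class II chain gene H2-Ab1 lay between 5.86 and 6.18 on the 8 arrays, at the level called dim. Of the 9 genes measured, 1 was higher and 1 lower without GH (median -0.07, all genes 0.03). Of all genes, 24.8% were higher and 22.7% lower.

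Across the 8 arrays, the genes outside the members most like Psmb10 by Pearson correlation were Cebpd, Hic1 and Mmp3 (0.994, 0.994 and 0.991). Those most like H2-D1 were Tmem245, Iqgap1 and Tagln2 (0.999, 0.999 and 0.998), and those most like H2-K1 were Fbn2, Synj1 and Sash1 (0.998, 0.997 and 0.997). The 8 points share the 4 groups and fall into the 2 genotypes, so these values only describe likeness over these arrays.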
